A study of Homo sapiens with 6 samples.

Results

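The genes of cholesterol and fatty acid synthesis were followed in human dermal fibroblasts in which the muscle transcription factor MyoD was switched on. The set holds 31 genes chosen by name: 18 for enzymes between acetyl-CoA and cholesterol, 4 for sensing or carrying sterols, and 9 for supplying precursors and making fatty acids. They are 31 of 23540 gene symbols with counts, and 31 of the 15289 genes that passed the filter on low counts, so no listed gene was lost. Their 56 transcript rows were summed per symbol.

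Messenger RNA was sequenced from 1 primary line of these skin cells in 3 groups, each of 2 libraries that the design text calls biological duplicates. Untreated cells, labelled as expressing no introduced gene, were the negative control. WT-MyoD cells carried mouse wild-type MyoD in a Tet-ON lentiviral vector, and VP64-MyoD cells carried the same vector with the VP64 activation domain joined to the N-terminus of mouse MyoD by a short serine-glycine linker. In both vectors a ribosomal skipping peptide joined MyoD to the red fluorescent protein dsRed-Express2. All cells were grown in DMEM with fetal bovine serum. Transduced cells received virus with 4 µg/mL polybrene and were selected with 1 µg/mL puromycin. Once confluent, they had 3 µg/mL doxycycline in their medium until harvest on day 10. Whether the untreated cells had a vector, selection, doxycycline or the same medium changes is not stated. The effects of these and of MyoD therefore cannot be told apart in a comparison with untreated cells. Since there was 1 line, the p-values rest on the spread among its cultures and say nothing of other donors.

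Cholesterol is built from acetyl-CoA through mevalonate, isoprenoid units, squalene and lanosterol, and the same acetyl-CoA feeds fatty acid synthesis. The transcription factors encoded by SREBF2 and SREBF1 switch on these genes when membrane sterol is low. SCAP carries them from the endoplasmic reticulum to the Golgi, where the proteases MBTPS1 and MBTPS2 release their active part, and INSIG1 and INSIG2 hold SCAP back when sterol is plentiful.

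Library totals lay between 40997586 and 53804224 counts, all values being even, as when a read pair is counted as 2. The mouse transgene stood at 5.13 and 1.05 CPM (read counts scaled to a common library size, with TMM factors) in untreated, 762 and 1021 CPM in WT-MyoD and 116 and 97.2 CPM in VP64-MyoD cells. It was lower in VP64-MyoD than in WT-MyoD cells (log2 fold change -3.06 ± 0.24, the error being the SE throughout, edgeR adjusted p = 3.4e-08), so the domain and the amount of transgene RNA cannot be told apart between the forms. Summed over 10 skeletal muscle markers, the level ran from 17.8 to 19.1 CPM in untreated cultures, 1103 to 1119 CPM with WT-MyoD and 5490 to 6285 CPM with VP64-MyoD. The sum over 10 fibroblast markers ran from 44240 to 46630, 30180 to 34380 and 31260 to 33860 CPM in the same order. The collagens COL1A1 (18380 and 19740 CPM) and COL1A2 (13010 and 13710 CPM) made up most of that sum in untreated cultures. The 10 fibroblast markers did not all fall. In WT-MyoD cells 4 were called higher and 4 lower than in untreated cells (median log2 fold change -0.04). For VP64-MyoD cells 2 were called higher and 7 lower (median -0.60). The part of these shifts in cell state in the values given here was not tested, and in bulk RNA fewer cells of a type and less RNA per cell cannot be told apart. Markers of fat cells were low: over 10 genes the sum lay between 4.32 and 7.89 CPM in the 6 libraries, with 7 genes under 1 CPM in each library and FABP4 at 0. Single genes moved in opposite directions within that sum. CEBPA stood at 0.081 and 0.046 CPM in untreated cultures and at 3.46 and 3.69 CPM with VP64-MyoD. PPARG stood at 3.03 and 3.52 CPM in untreated cultures and at 1.13 and 1.15 CPM with VP64-MyoD. Of 10 epithelial, endothelial and blood markers, 6 lay under 1 CPM in each library and HBB was at 0. Most of that list's sum was CD68, a lysosomal protein of macrophages, at 66.4 and 68.0 CPM in untreated cultures, 176 and 179 CPM with WT-MyoD and 43.3 and 45.1 CPM with VP64-MyoD.

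With VP64-MyoD set against WT-MyoD, 18 of the 31 genes were higher and 5 were lower, at a Benjamini-Hochberg adjusted p under 0.05 in edgeR's quasi-likelihood test. Over all 15289 genes, 28.7% were called higher and 28.4% lower in this comparison, or 57.2% in all. The 2 libraries of one form lay apart from the 2 of the other for 27 of the 31 genes and for 78.5% of all genes. The median log2 fold change was 0.36 over the 31 genes and 0.02 over all genes. IDI1, STARD4, MSMO1, ACAT2 and SQLE were the most raised, and LSS, SREBF1, ACSS2, FASN and ACACA were the lower ones. Without VP64-MyoD replicate 2, 3 genes were called lower. A called change over 2-fold was seen for 4 of the 31 genes (IDI1, STARD4, MSMO1 and LSS), and for 14.4% of all genes.

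With VP64-MyoD set against untreated cells, 16 of the 31 genes rose and 8 fell, where 33.3% of all genes rose and 30.3% fell (63.6% in all). The libraries of the 2 groups lay apart for 29 of the 31 genes and 83.5% of all genes. The median log2 fold change was 0.25, against 0.03 over all genes. IDI1, ELOVL6, ACAT2, HSD17B7 and INSIG1 rose over 2-fold, a size that 19.9% of all genes reached in either direction. LSS fell most, followed by ACACA, ACSS2, SREBF2 and SREBF1. Scaling matters for the small falls: with library totals alone in place of TMM factors, the median of all genes moved to 0.22, the share of calls that were higher went from 52.4% to 68.5%, and 20 genes rose and 2 fell (LSS and ACACA). PMVK, CYP51A1, TM7SF2 and EBP were the added rises.

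With WT-MyoD set against untreated cells, 10 genes rose and 10 fell, where 26% of all genes rose and 22.6% fell (48.5% in all). The libraries lay apart for 26 of the 31 genes and 71.8% of all genes, and the median log2 fold change was 0.04, against 0.00 over all genes. ELOVL6 rose over 2-fold, which 15.7% of all genes did in either direction, and HSD17B7, EBP, ACAT2 and LSS had the next highest values. MSMO1 fell most, followed by DHCR7, FADS2, STARD4 and ACACA. With library totals alone, the median of all genes moved to 0.17, the share of calls that were higher went from 53.5% to 75.6%, and 14 genes rose and 4 fell (MSMO1, DHCR7, FADS2 and ACACA). MVK, SC5D, SREBF1 and SCD were the added rises. Both comparisons with untreated cells share the untreated libraries, so their values are given side by side below and are not 2 independent results.

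**Figure D1:**
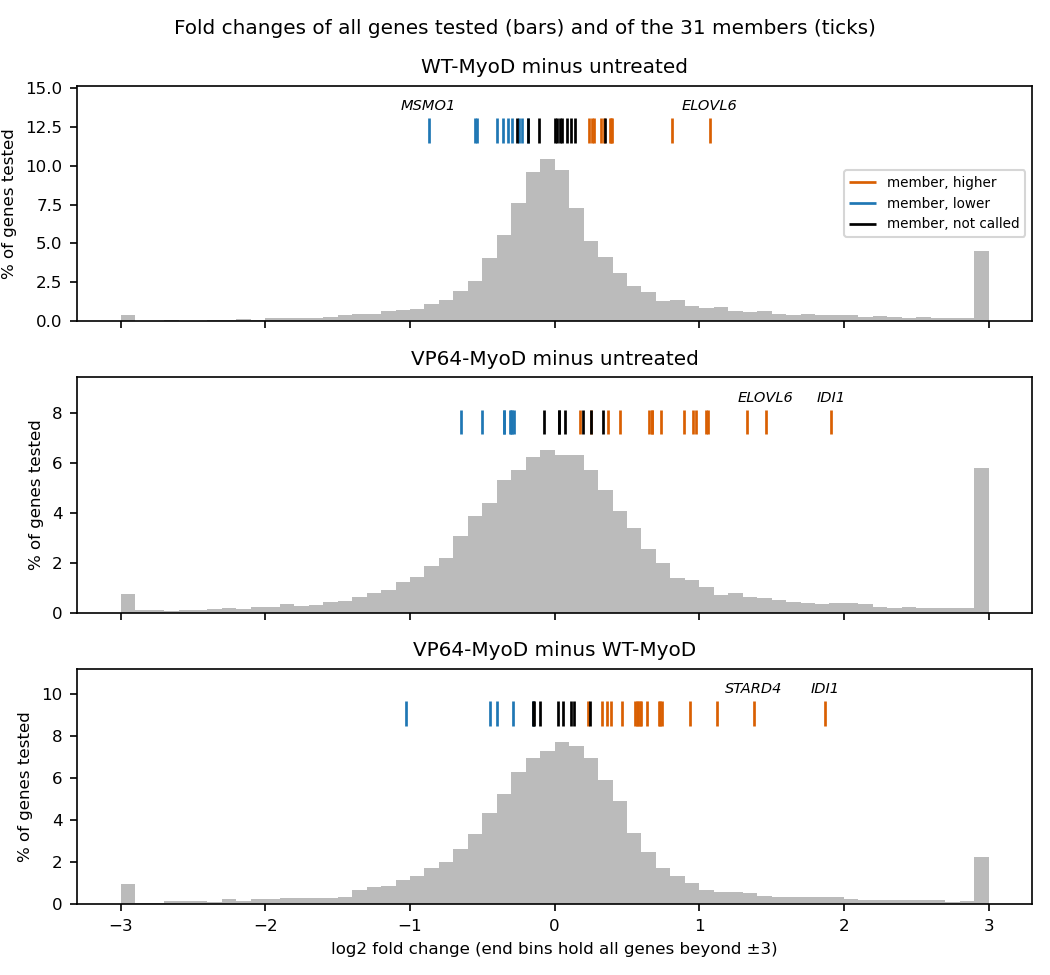
Histogram of log2 fold changes of all 15289 genes tested (grey bars, percent of genes per bin; the end bins hold all genes beyond 3 in size) with the 31 lipid synthesis genes as ticks coloured by call, for each of the 3 comparisons. The ticks have a median of 0.04 with WT-MyoD over untreated cells, 0.25 with VP64-MyoD over untreated cells and 0.36 between the forms, and IDI1 is the farthest tick in the last of these at 1.87.

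The pathway begins with ACAT2, which joins acetyl-CoA units into acetoacetyl-CoA. ACAT2 stood at 9.57 and 9.74 CPM in untreated, 13.3 and 11.9 CPM in WT-MyoD and 22.3 and 26.2 CPM in VP64-MyoD cells. All 3 groups were apart, in the order untreated, WT-MyoD, VP64-MyoD, and ACAT2 rose with VP64-MyoD (log2 fold change 1.33 ± 0.10, edgeR adjusted p = 1.7e-08) and was higher there than with WT-MyoD (log2 fold change 0.94 ± 0.10, edgeR adjusted p = 1.0e-06). The smaller rise with WT-MyoD (log2 fold change 0.39 ± 0.11, edgeR adjusted p = 0.0064) lost its call without untreated replicate 1 (log2 fold change 0.38, edgeR adjusted p = 0.051). The libraries do not mark strand, and an ACAT2 exon overlaps the opposite-strand gene TCP1, a chaperonin subunit, whose level was 109.7 and 108.4 CPM in untreated cultures, 129 and 112 CPM with WT-MyoD and 178 and 179.6 CPM with VP64-MyoD. An ACAT2 exon also overlaps SOD2, a mitochondrial dismutase on the opposite strand, at 112 and 126 CPM in untreated cultures, 178 and 204 CPM with WT-MyoD and 50.8 and 50.5 CPM with VP64-MyoD. How much TCP1 or SOD2 reads add to ACAT2 was not tested.

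HMGCS1 makes HMG-CoA, the precursor of mevalonate. It stood at 51.1 and 55.5 CPM in untreated, 46.8 and 44.2 CPM in WT-MyoD and 67.4 and 69.9 CPM in VP64-MyoD cells. The WT-MyoD libraries were the lowest and the VP64-MyoD libraries the highest, with a log2 fold change of -0.23 for WT-MyoD (edgeR adjusted p = 0.013) and 0.37 for VP64-MyoD (edgeR adjusted p = 0.00022) over untreated cells. The fall with WT-MyoD lost its call without untreated replicate 2 (log2 fold change -0.16, edgeR adjusted p = 0.19) and with library totals alone (log2 fold change -0.05, edgeR adjusted p = 0.66). Between the MyoD forms HMGCS1 was higher with VP64-MyoD (log2 fold change 0.59, edgeR adjusted p = 2.4e-06).

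Mevalonate is then phosphorylated by MVK and PMVK and decarboxylated by MVD. MVK, at 4.57 to 8.44 CPM in the 6 libraries, rose with VP64-MyoD (log2 fold change 0.67, edgeR adjusted p = 0.00047). With WT-MyoD, MVK was not called, but 5 alternatives called it higher, among them the replicate block (log2 fold change 0.34, edgeR adjusted p = 0.038). PMVK rose with WT-MyoD (log2 fold change 0.34, edgeR adjusted p = 0.0038) and did not pass with VP64-MyoD (0.20, edgeR adjusted p = 0.055). It did pass with VP64-MyoD under 6 alternatives, among them the replicate block (edgeR adjusted p = 0.049) and a fit of these 2 groups alone (0.023). Without WT-MyoD replicate 2, PMVK was also lower in VP64-MyoD than WT-MyoD cells (log2 fold change -0.23, edgeR adjusted p = 0.028). MVD passed in none of the 3 comparisons, with edgeR adjusted p-values of 0.085, 0.46 and 0.28. Thus among these 3 steps only MVK was called different between the MyoD forms (log2 fold change 0.33, edgeR adjusted p = 0.047), and it lost that call under 10 alternatives, among them DESeq2 (adjusted p = 0.11), without VP64-MyoD replicate 1 (log2 fold change 0.21, edgeR adjusted p = 0.33), without WT-MyoD replicate 2 (log2 fold change 0.24, edgeR adjusted p = 0.18) and without either untreated library (edgeR adjusted p = 0.052 and 0.058). MVK shares exon sequence on opposite strands with MMAB, a cobalamin enzyme gene, at 6.12 to 10.6 CPM.

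IDI1 showed the largest change of the set. This isomerase converts the first isoprenoid unit into its reactive form. IDI1 stood at 32.8 and 34.4 CPM in untreated, 37.9 and 30.8 CPM in WT-MyoD and 132 and 120.3 CPM in VP64-MyoD cells. Both VP64-MyoD libraries were over 3 times the highest of the other 4, and the untreated and WT-MyoD libraries overlapped. The rise was 3.75-fold over untreated cells (log2 fold change 1.91 ± 0.09, edgeR adjusted p = 2.4e-11) and 3.66-fold over WT-MyoD cells (log2 fold change 1.87 ± 0.09, edgeR adjusted p = 5.4e-11). Against untreated cells WT-MyoD gave no call (log2 fold change 0.04 ± 0.09, edgeR adjusted p = 0.77), though it did without WT-MyoD replicate 2 (log2 fold change 0.19, edgeR adjusted p = 0.032). IDI2-AS1, which overlaps IDI1 on the opposite strand, stood at 0.294 to 0.746 CPM in untreated and WT-MyoD cells and at 3.81 and 3.12 CPM with VP64-MyoD, far under IDI1 itself. The paralog IDI2 stayed between 0.979 and 2.17 CPM.

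FDPS joins isoprenoid units into farnesyl diphosphate, and FDFT1 joins farnesyl units into squalene. FDPS stood at 36.4 and 34.1 CPM in untreated, 44.8 and 38.1 CPM in WT-MyoD and 67.3 and 69.8 CPM in VP64-MyoD cells. The VP64-MyoD libraries were apart from the rest (log2 fold change 0.96 ± 0.08, edgeR adjusted p = 3.7e-08 over untreated cells). The rise of FDPS with WT-MyoD (log2 fold change 0.24, edgeR adjusted p = 0.024) lost its call without untreated replicate 1 (log2 fold change 0.28). The same held without untreated replicate 2 (0.20) and without WT-MyoD replicate 1 (0.11). It turned to -0.11 (edgeR adjusted p = 0.49) on 1 transcript row, tied with another as the largest of the 5 FDPS rows. These 5 rows ran from -0.12 to 0.53 on the log2 scale. FDPS has copies elsewhere in the genome that could share reads; 1 of them, FDPSP2, was counted at 1.24 to 1.69 CPM. FDFT1 stood at 49.2 and 48.0 CPM in untreated, 60.3 and 57.2 CPM in WT-MyoD and 78.9 and 83.3 CPM in VP64-MyoD cells, and its groups formed 3 steps without overlap (log2 fold change 0.27 with WT-MyoD and 0.74 with VP64-MyoD, edgeR adjusted p = 0.0025 and 7.0e-08).

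SQLE adds oxygen to squalene, a rate-controlling step of sterol synthesis. It stood at 57.2 and 55.8 CPM in untreated, 48.5 and 43.3 CPM in WT-MyoD and 76.7 and 77.5 CPM in VP64-MyoD cells. Here the WT-MyoD libraries lay under the untreated ones (log2 fold change -0.30 ± 0.07, edgeR adjusted p = 0.0021) and the VP64-MyoD libraries above them (log2 fold change 0.45 ± 0.07, edgeR adjusted p = 3.2e-05), and the difference between the forms was 0.75 on the log2 scale (edgeR adjusted p = 1.9e-07). The fall with WT-MyoD was not called with library totals alone (log2 fold change -0.12, edgeR adjusted p = 0.26).

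LSS, the cyclase that makes lanosterol from the product of SQLE, did the reverse. LSS stood at 159 and 159 CPM in untreated, 203 and 211 CPM in WT-MyoD and 99.9 and 103 CPM in VP64-MyoD cells. Its groups did not overlap: WT-MyoD was highest, untreated cells in the middle and VP64-MyoD lowest. It rose with WT-MyoD (log2 fold change 0.38 ± 0.06, edgeR adjusted p = 6.4e-05), fell with VP64-MyoD (log2 fold change -0.65 ± 0.06, edgeR adjusted p = 1.4e-07) and was lower with VP64-MyoD than in WT-MyoD cells (log2 fold change -1.03 ± 0.06, edgeR adjusted p = 8.9e-10). All 4 LSS transcript rows had the same directions, from 0.34 to 0.42 with WT-MyoD and from -0.80 to -0.60 with VP64-MyoD on the log2 scale. Transcript rows of 1 gene can share exons and reads, so like directions among them are not separate evidence, here or for the genes below. No alternative changed these 3 calls.

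The enzymes after lanosterol trim its methyl groups and shift its double bonds, and the calls differed among them. CYP51A1, which removes the first methyl group, stood between 70.5 and 83.8 CPM in the 6 libraries and passed in none of the 3 comparisons (edgeR adjusted p = 0.22, 0.75 and 0.11). It was called lower with WT-MyoD than in untreated cells (log2 fold change -0.16, edgeR adjusted p = 0.04) and higher in VP64-MyoD than WT-MyoD cells (log2 fold change 0.19, edgeR adjusted p = 0.016) when WT-MyoD replicate 2 was left out. NSDHL, a dehydrogenase of the later demethylation in which MSMO1 acts, stood between 12.8 and 14.9 CPM and also passed in none (edgeR adjusted p = 0.93, 0.55 and 0.64).

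MSMO1, the oxidase of the methyl groups next removed, was lowest with WT-MyoD. MSMO1 stood at 78.5 and 75.7 CPM in untreated, 42.8 and 41.4 CPM in WT-MyoD and 88.7 and 94.6 CPM in VP64-MyoD cells. The WT-MyoD libraries were 1.83 times lower than the untreated ones on average (log2 fold change -0.87 ± 0.07, edgeR adjusted p = 1.3e-08) and under all others. VP64-MyoD lay slightly over untreated cells (log2 fold change 0.25 ± 0.06, edgeR adjusted p = 0.0027), a call lost without VP64-MyoD replicate 2 (log2 fold change 0.20, edgeR adjusted p = 0.068). Between the forms the difference was 2.18-fold (log2 fold change 1.12 ± 0.06, edgeR adjusted p = 7.2e-10), and both MSMO1 transcript rows gave 1.07 or more on the log2 scale.

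The remaining late enzymes split again. HSD17B7, a ketoreductase, was low, at 1.66 and 1.65 CPM in untreated, 3.09 and 2.69 CPM in WT-MyoD and 3.59 and 3.31 CPM in VP64-MyoD cells, and the untreated libraries were apart from the other 4. It rose with WT-MyoD (log2 fold change 0.81 ± 0.19, edgeR adjusted p = 0.0023) and with VP64-MyoD (log2 fold change 1.06 ± 0.19, edgeR adjusted p = 0.00015), and the forms were not called different (log2 fold change 0.25, edgeR adjusted p = 0.24). Its copy HSD17B7P2 was counted at 0.202 to 0.563 CPM and could share reads. EBP, a sterol isomerase, stood at 5.00 and 4.44 CPM in untreated, 7.04 and 5.33 CPM in WT-MyoD and 5.15 and 6.08 CPM in VP64-MyoD cells. Its rise with WT-MyoD (log2 fold change 0.40 ± 0.16, edgeR adjusted p = 0.047) did not hold under several alternatives: DESeq2, limma-voom, a fit of these 2 groups alone and the replicate block each took it past 0.05, with adjusted p-values of 0.092, 0.055, 0.054 and 0.051. The call of EBP also ended without untreated replicate 1 (0.077), untreated replicate 2 (0.22), WT-MyoD replicate 1 (0.45) or VP64-MyoD replicate 2 (0.052).

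SC5D, which adds a ring double bond, stood at 66.4 and 68.5 CPM in untreated, 70.2 and 72.8 CPM in WT-MyoD and 107 and 105 CPM in VP64-MyoD cells. It rose with VP64-MyoD (log2 fold change 0.65 ± 0.06, edgeR adjusted p = 1.6e-07) and did not pass with WT-MyoD (log2 fold change 0.08, edgeR adjusted p = 0.29). DHCR7, the reductase that makes cholesterol itself, stood at 42.3 and 39.8 CPM in untreated, 29.4 and 26.5 CPM in WT-MyoD and 43.4 and 40.3 CPM in VP64-MyoD cells. The WT-MyoD libraries were lowest (log2 fold change -0.55 ± 0.08, edgeR adjusted p = 2.4e-05) and the untreated and VP64-MyoD libraries overlapped (log2 fold change 0.03, edgeR adjusted p = 0.77). TM7SF2, a sterol reductase, lay between 1.62 and 3.16 CPM and was called only as higher in VP64-MyoD than WT-MyoD cells (log2 fold change 0.60 ± 0.21, edgeR adjusted p = 0.025). That call of TM7SF2 was lost with DESeq2 (adjusted p = 0.057), without WT-MyoD replicate 2 (log2 fold change 0.37, edgeR adjusted p = 0.18) and without VP64-MyoD replicate 1 (log2 fold change 0.51, edgeR adjusted p = 0.13). TM7SF2 shares exon sequence with VPS51, a vesicle tethering gene at 53.2 to 83.1 CPM.

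Counted together, 11 of the 18 cholesterol enzymes were higher in VP64-MyoD than WT-MyoD cells and 1 (LSS) was lower, with a median log2 fold change of 0.52 against 0.02 over all genes, of which 28.7% were higher and 28.4% lower. Over untreated cells, 10 rose and 1 fell with VP64-MyoD (median 0.35), and 7 rose and 4 fell with WT-MyoD (median 0.06), or 4 rose without untreated replicate 1. The shares of all genes that rose and fell were 33.3% and 30.3% with VP64-MyoD and 26% and 22.6% with WT-MyoD. Without WT-MyoD replicate 2, PMVK joined LSS as lower between the forms. On library totals alone, 14 rose and 1 fell with VP64-MyoD, and 9 rose and 2 fell with WT-MyoD. Their summed level was 726 and 728 CPM in untreated, 745 and 723 CPM in WT-MyoD and 939 and 946 CPM in VP64-MyoD cells, so the sum was raised with VP64-MyoD and the untreated and WT-MyoD libraries overlapped.

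**Figure D2:**
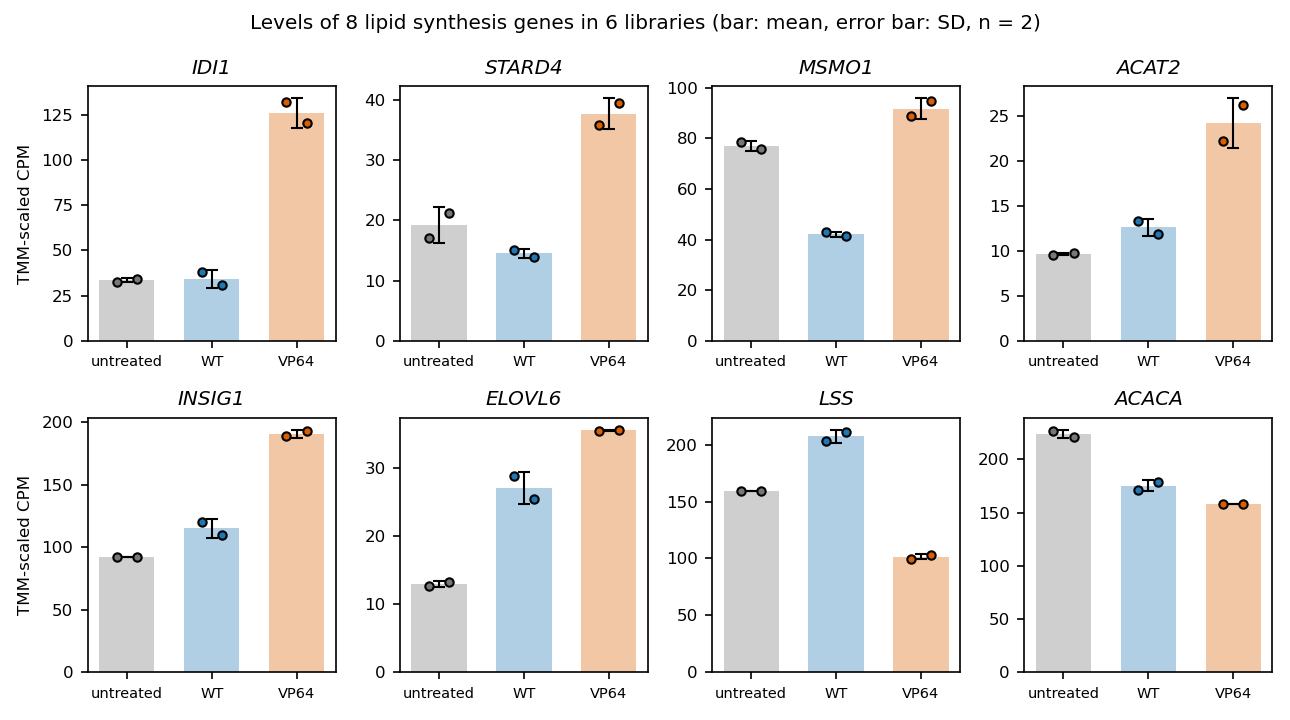
Levels in TMM-scaled CPM of 8 genes in untreated, WT-MyoD and VP64-MyoD cells, with each library as a point, the group mean as a bar and the SD over 2 libraries as an error bar; each panel has its own axis from 0. IDI1, STARD4, ACAT2, INSIG1 and ELOVL6 are highest with VP64-MyoD, MSMO1 is lowest with WT-MyoD, LSS is highest with WT-MyoD and lowest with VP64-MyoD, and ACACA is highest in untreated cells.

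Sterol sensing genes moved in unlike directions. INSIG1, the anchor that keeps SCAP in the endoplasmic reticulum and is itself switched on by the SREBF factors, stood at 92.4 and 92.0 CPM in untreated, 120.5 and 109.8 CPM in WT-MyoD and 188 and 193 CPM in VP64-MyoD cells. The groups formed 3 steps without overlap, with a rise for WT-MyoD (log2 fold change 0.32 ± 0.06, edgeR adjusted p = 0.00061), a larger one for VP64-MyoD (log2 fold change 1.05 ± 0.06, edgeR adjusted p = 9.5e-10) and a difference of 0.73 between them (SE 0.06; edgeR adjusted p = 1.0e-07). All 3 INSIG1 transcript rows rose by 0.97 or more on the log2 scale with VP64-MyoD.

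The RNAs of both transcription factors did not rise with VP64-MyoD. SREBF1 stood at 98.1 and 99.4 CPM in untreated, 103 and 115 CPM in WT-MyoD and 78.8 and 80.8 CPM in VP64-MyoD cells, and the VP64-MyoD libraries were under the other 4. It was lower with VP64-MyoD than in untreated cells (log2 fold change -0.31 ± 0.07, edgeR adjusted p = 0.00084) and than with WT-MyoD (log2 fold change -0.45 ± 0.07, edgeR adjusted p = 3.5e-05), and did not pass with WT-MyoD against untreated cells (log2 fold change 0.14 ± 0.07, edgeR adjusted p = 0.098), though it rose without WT-MyoD replicate 1 (log2 fold change 0.22, edgeR adjusted p = 0.0036) and with library totals alone (log2 fold change 0.31, edgeR adjusted p = 0.00075). SREBF2 stood at 237 and 222 CPM in untreated, 177 and 210.1 CPM in WT-MyoD and 183 and 178 CPM in VP64-MyoD cells. The untreated libraries of SREBF2 were highest and the 2 MyoD groups overlapped.

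SREBF2 fell with VP64-MyoD (log2 fold change -0.35 ± 0.08, edgeR adjusted p = 0.001) and with WT-MyoD (log2 fold change -0.25 ± 0.08, edgeR adjusted p = 0.014), the latter not without untreated replicate 1 (log2 fold change -0.20, edgeR adjusted p = 0.15) or WT-MyoD replicate 1 (log2 fold change -0.13, edgeR adjusted p = 0.064). The forms were not called different (log2 fold change -0.10 ± 0.08, edgeR adjusted p = 0.29), but were without WT-MyoD replicate 1 (log2 fold change -0.22, edgeR adjusted p = 0.0017). With library totals alone, SREBF1 (log2 fold change -0.12, edgeR adjusted p = 0.16) and SREBF2 (log2 fold change -0.16, edgeR adjusted p = 0.052) were not called against untreated cells with VP64-MyoD, whereas the difference in SREBF1 between the forms was called under each of the 17 alternatives.

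STARD4, a carrier that moves cholesterol between membranes, had the second largest difference between the forms. STARD4 stood at 17.1 and 21.3 CPM in untreated, 15.0 and 14.0 CPM in WT-MyoD and 35.9 and 39.5 CPM in VP64-MyoD cells. The VP64-MyoD libraries were the highest and the WT-MyoD libraries the lowest, with no overlap. STARD4 rose with VP64-MyoD (log2 fold change 0.98 ± 0.10, edgeR adjusted p = 4.0e-07) and was higher there than with WT-MyoD (log2 fold change 1.38 ± 0.10, edgeR adjusted p = 1.3e-08). Its fall with WT-MyoD (log2 fold change -0.40 ± 0.10, edgeR adjusted p = 0.005) was lost without untreated replicate 2 (log2 fold change -0.22, edgeR adjusted p = 0.14) and with library totals alone (log2 fold change -0.22, edgeR adjusted p = 0.11). The opposite-strand gene STARD4-AS1, which overlaps it, stood at 9.49 and 11.5 CPM in untreated cultures, 6.40 and 7.24 CPM with WT-MyoD and 12.6 and 11.8 CPM with VP64-MyoD; their reads cannot be told apart where they overlap.

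**Figure D3:**
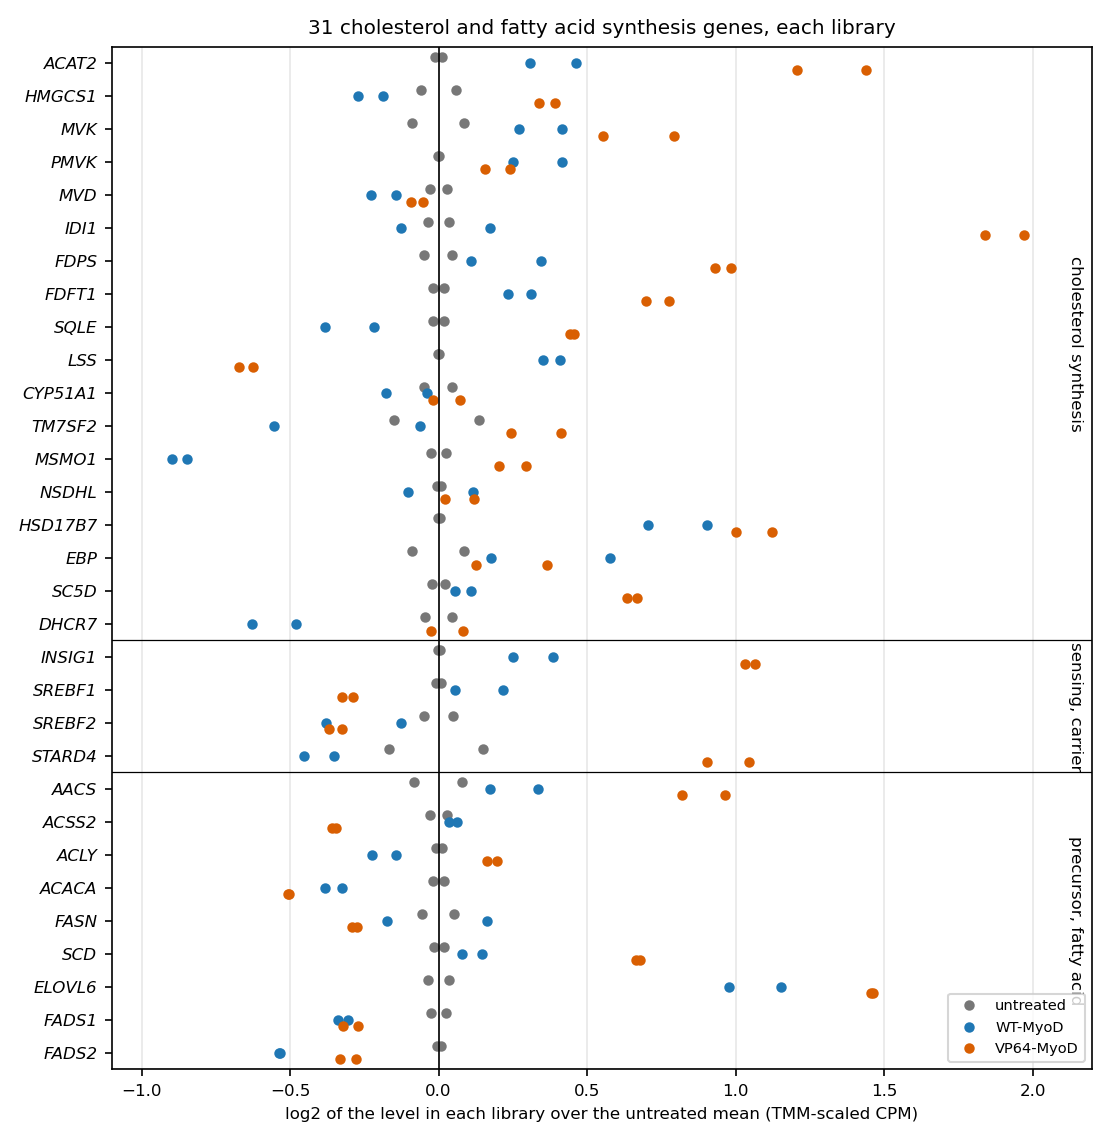
The level of each of the 31 genes in each of the 6 libraries as log2 over the untreated mean (TMM-scaled CPM), with genes in pathway order and grouped by role; each gene has 2 points per group. Both VP64-MyoD points of IDI1, ELOVL6, ACAT2, HSD17B7 and INSIG1 lie past 1, those of LSS, ACACA, SREBF1, SREBF2 and ACSS2 lie under 0, and the WT-MyoD points of MSMO1 are the lowest of that group.

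The DNA ahead of 5 of these genes is shown because they held the largest differences between the MyoD forms (IDI1, STARD4, MSMO1 and LSS) or the only sterol element match (SREBF2). The sequences are the 250 bases before a RefSeq start site in GRCh38.p14, 5′ to 3′ on the gene's strand. Capitals mark matches on either strand to TCACNCCAC, a consensus of the sterol regulatory element bound by the SREBF factors, to CCAAT, the box bound by their partner NF-Y (ATTGG on the other strand), and to the MyoD-type E-boxes CAGCTG and CACCTG. IDI1 has 3 start sites in the table, and the 1 with the most matches is shown.
IDI1, chr10:1048887-1049136, minus strand: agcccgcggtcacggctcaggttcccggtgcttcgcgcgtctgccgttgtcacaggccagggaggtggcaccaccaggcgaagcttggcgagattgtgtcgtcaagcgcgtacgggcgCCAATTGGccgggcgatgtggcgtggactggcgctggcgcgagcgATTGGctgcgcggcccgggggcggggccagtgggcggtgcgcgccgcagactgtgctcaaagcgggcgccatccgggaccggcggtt
STARD4, chr5:111512536-111512785, minus strand: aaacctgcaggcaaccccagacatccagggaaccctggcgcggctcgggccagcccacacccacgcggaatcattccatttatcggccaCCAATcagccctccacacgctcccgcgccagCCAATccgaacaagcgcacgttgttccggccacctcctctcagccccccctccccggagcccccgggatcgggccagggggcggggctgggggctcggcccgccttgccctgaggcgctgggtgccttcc
MSMO1, chr4:165327419-165327668, plus strand: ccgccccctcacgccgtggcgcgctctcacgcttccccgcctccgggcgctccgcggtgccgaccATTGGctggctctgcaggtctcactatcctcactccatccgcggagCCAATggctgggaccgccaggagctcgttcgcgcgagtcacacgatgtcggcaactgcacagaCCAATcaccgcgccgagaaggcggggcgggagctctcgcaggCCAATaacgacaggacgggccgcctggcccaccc
LSS, chr21:46228775-46229024, minus strand: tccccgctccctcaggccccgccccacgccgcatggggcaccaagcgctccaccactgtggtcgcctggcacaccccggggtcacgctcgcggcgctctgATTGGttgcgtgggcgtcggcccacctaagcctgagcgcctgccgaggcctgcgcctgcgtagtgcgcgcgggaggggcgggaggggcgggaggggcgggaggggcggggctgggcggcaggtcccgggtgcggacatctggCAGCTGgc
SREBF2, chr22:41832855-41833104, plus strand: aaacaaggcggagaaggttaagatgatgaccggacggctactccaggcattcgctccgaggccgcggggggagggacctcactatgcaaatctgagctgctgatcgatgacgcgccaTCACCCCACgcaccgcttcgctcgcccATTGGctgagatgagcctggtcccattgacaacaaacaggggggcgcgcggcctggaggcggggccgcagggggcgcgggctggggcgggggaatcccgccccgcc

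MSMO1 held 4 CCAAT matches in its window. STARD4 held 2 matches, whereas LSS and SREBF2 held 1 each. In the IDI1 window shown there were 3, of which 1 pair on opposite strands overlaps. Another IDI1 window held CCAAT matches that begin 215 and 117 bases before its start, and the remaining IDI1 window held no match. The sterol element of SREBF2 begins 133 bases before the start, and the CAGCTG E-box of LSS begins 8 bases before it. MSMO1 has a CACCTG E-box that begins at base 44 after the start, past the end of the sequence shown. Promoter sequences of 250 bases before to 50 after a start were at hand for 27 of the 31 genes. Of these 27 genes, 21 (77.8%) held a CCAAT match in at least 1 window, against 39.7% of 27305 genes in the table. Those 27305 genes were not limited to the 15289 tested here, so many may not be expressed in these cells. CAGCTG was found in 6 (22.2%, against 21.1% of all genes), CACCTG in 8 (29.6%, against 24.1%), and the sterol element in 1 (3.70%, against 1.39%). Counted by window, CCAAT was in 34.6% of all 35116 windows and the sterol element in 1.13%. A match is only a run of letters, and a lack of one says only that those letters are not in the window.

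Enzymes that supply acetyl units came next. AACS, which activates acetoacetate for lipid synthesis in the cytosol, stood at 33.7 and 30.1 CPM in untreated, 40.2 and 35.9 CPM in WT-MyoD and 62.2 and 56.3 CPM in VP64-MyoD cells. The 3 groups stepped upward without overlap (log2 fold change 0.26 with WT-MyoD and 0.89 with VP64-MyoD, edgeR adjusted p = 0.018 and 1.3e-07). The smaller step was not called without untreated replicate 2 (log2 fold change 0.19, edgeR adjusted p = 0.19) or WT-MyoD replicate 1 (log2 fold change 0.17, edgeR adjusted p = 0.1). ACSS2, which makes acetyl-CoA from acetate, was lowest with VP64-MyoD, at 27.9 and 26.8 CPM in untreated, 28.0 and 28.6 CPM in WT-MyoD and 21.5 and 21.3 CPM in VP64-MyoD cells.

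ACSS2 was lower with VP64-MyoD than in untreated cells (log2 fold change -0.35 ± 0.08, edgeR adjusted p = 0.00079; with library totals alone log2 fold change -0.16, edgeR adjusted p = 0.14) and than with WT-MyoD (log2 fold change -0.40 ± 0.08, edgeR adjusted p = 0.00031). ACLY, which makes acetyl-CoA from citrate, stood at 267 and 271 CPM in untreated, 230 and 243 CPM in WT-MyoD and 308 and 300.5 CPM in VP64-MyoD cells. It was higher in VP64-MyoD than WT-MyoD cells (log2 fold change 0.36, edgeR adjusted p = 0.00012). Against untreated cells ACLY changed little, by -0.18 with WT-MyoD and by 0.18 with VP64-MyoD on the log2 scale (edgeR adjusted p = 0.022 and 0.019). The call of ACLY with VP64-MyoD ended when any 1 of the 4 libraries compared was left out, with adjusted p-values from 0.079 without untreated replicate 2 and 0.086 without VP64-MyoD replicate 2 to 0.12 without untreated replicate 1 and 0.15 without VP64-MyoD replicate 1. With WT-MyoD it ended without untreated replicate 1 (0.092), untreated replicate 2 (0.15) or either VP64-MyoD library (0.055 each), in a fit of these 2 groups alone (0.057) and with library totals alone (0.92).

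The chain-building enzymes themselves did not rise. ACACA, the acetyl-CoA carboxylase that commits carbon to fatty acids, stood at 227 and 221 CPM in untreated, 172 and 179 CPM in WT-MyoD and 158 and 158 CPM in VP64-MyoD cells. The untreated libraries were highest and VP64-MyoD libraries lowest. ACACA fell with WT-MyoD (log2 fold change -0.35 ± 0.06, edgeR adjusted p = 0.00013) and with VP64-MyoD (log2 fold change -0.51 ± 0.06, edgeR adjusted p = 2.3e-06), and each of its 5 transcript rows was lower with both forms. The small difference between the forms (log2 fold change -0.15 ± 0.06, edgeR adjusted p = 0.044) lost its call under 10 alternatives, among them each untreated library left out (edgeR adjusted p = 0.079 and 0.063) and each VP64-MyoD library left out (0.20 and 0.19).

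FASN, the fatty acid synthase, stood at 272 and 253 CPM in untreated, 233 and 295 CPM in WT-MyoD and 218 and 215 CPM in VP64-MyoD cells. The WT-MyoD libraries spanned the untreated ones, and the log2 fold change turned from 0.01 (edgeR adjusted p = 0.97) to 0.16 without WT-MyoD replicate 1 (0.018) and -0.16 without WT-MyoD replicate 2 (0.022), so no direction can be given there. With VP64-MyoD, FASN was lower than in untreated cells (log2 fold change -0.28 ± 0.09, edgeR adjusted p = 0.011), but not without untreated replicate 1 (log2 fold change -0.23, edgeR adjusted p = 0.11), without VP64-MyoD replicate 2 (log2 fold change -0.28, edgeR adjusted p = 0.059) or with library totals alone (log2 fold change -0.10, edgeR adjusted p = 0.27). It was lower than with WT-MyoD as well (log2 fold change -0.29 ± 0.09, edgeR adjusted p = 0.011), a call lost without WT-MyoD replicate 2 (log2 fold change -0.13, edgeR adjusted p = 0.062) or VP64-MyoD replicate 2 (log2 fold change -0.28, edgeR adjusted p = 0.065).

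The enzymes that lengthen or desaturate finished chains differed among themselves. ELOVL6, the elongase acting on the products of FASN, stood at 12.6 and 13.3 CPM in untreated, 28.8 and 25.5 CPM in WT-MyoD and 35.5 and 35.6 CPM in VP64-MyoD cells. The groups formed 3 steps, with a 2.10-fold rise for WT-MyoD (log2 fold change 1.07 ± 0.09, edgeR adjusted p = 3.2e-08) and a 2.75-fold rise for VP64-MyoD (log2 fold change 1.46 ± 0.09, edgeR adjusted p = 5.3e-10), and the forms differed (log2 fold change 0.39 ± 0.08, edgeR adjusted p = 0.00074). No alternative changed these calls. ELOVL6 was also the sole gene of the 31 in the authors' deposited table, which gives both MyoD forms over untreated cells for each transcript. Its 2 transcripts there had log2 fold changes of 1.04 and 1.11 for WT-MyoD, and of 1.42 and 1.49 for VP64-MyoD. Absence from that table does not mean little change with VP64-MyoD, since IDI1, the most raised of the 31 over untreated cells, is not in it.

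SCD, which puts the first double bond into saturated chains, stood at 349 and 341 CPM in untreated, 365 and 382 CPM in WT-MyoD and 547 and 552 CPM in VP64-MyoD cells. It rose with VP64-MyoD (log2 fold change 0.67 ± 0.06, edgeR adjusted p = 1.4e-07) and was higher there than with WT-MyoD (log2 fold change 0.56, edgeR adjusted p = 1.7e-06). With WT-MyoD it did not pass (log2 fold change 0.11 ± 0.06, edgeR adjusted p = 0.15), except without WT-MyoD replicate 1 (log2 fold change 0.14, edgeR adjusted p = 0.026) and with library totals alone (log2 fold change 0.29, edgeR adjusted p = 0.00056).

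FADS1 and FADS2, which desaturate polyunsaturated chains, lie side by side with overlapping exons on opposite strands, so some of their reads cannot be assigned. FADS2 also shares exon sequence with FEN1 on the same strand. FEN1 stood at 8.2 and 9.2 CPM in untreated, 24.05 and 21.6 CPM in WT-MyoD and 20.0 and 23.7 CPM in VP64-MyoD cells. How much FEN1 reads add to FADS2 was not tested. FADS1 stood at 176 and 170.1 CPM in untreated, 140.3 and 137 CPM in WT-MyoD and 139 and 144 CPM in VP64-MyoD cells. FADS2 stood at 149 and 148 CPM in untreated, 102 and 102 CPM in WT-MyoD and 118 and 122 CPM in VP64-MyoD cells. In both genes the untreated libraries were the highest. The log2 fold changes were -0.32 and -0.30 for FADS1 with WT-MyoD and VP64-MyoD (edgeR adjusted p = 0.00035 and 0.00049). For FADS2 they were -0.54 and -0.30 (edgeR adjusted p = 1.6e-06 and 0.00034). On library totals alone FADS1 was not called with either form (edgeR adjusted p = 0.091 with WT-MyoD and 0.19 with VP64-MyoD), nor FADS2 with VP64-MyoD (log2 fold change -0.12, edgeR adjusted p = 0.16). FADS2 was higher in VP64-MyoD than WT-MyoD cells (log2 fold change 0.23, edgeR adjusted p = 0.0039), though not without VP64-MyoD replicate 2 (log2 fold change 0.20, edgeR adjusted p = 0.072).

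Of the 9 precursor and fatty acid genes, 5 were higher and 3 lower in VP64-MyoD than WT-MyoD cells (median log2 fold change 0.23), or 1 lower without VP64-MyoD replicate 2, where 28.7% of all genes were higher and 28.4% lower. Over untreated cells, 4 rose and 5 fell with VP64-MyoD (median -0.28), and 2 rose and 4 fell with WT-MyoD (median 0.01), or 1 rose without untreated replicate 2. All genes gave 33.3% and 30.3% with VP64-MyoD, and 26% and 22.6% with WT-MyoD. With library totals alone, 4 rose and 1 fell with VP64-MyoD, and 3 rose and 2 fell with WT-MyoD. With VP64-MyoD the risers were ELOVL6, AACS, SCD and ACLY.

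Genes around these pathways were taken from 5 further lists. Of 11 genes for the handling of SREBF proteins, 1 was higher and 5 lower in VP64-MyoD than WT-MyoD cells (median log2 fold change -0.17). The number called was near the 57.2% of all genes called there, with 28.7% higher and 28.4% lower. SCAP, the escort protein, was lower in both VP64-MyoD libraries: 107 and 98.4 CPM in untreated, 106 and 116 CPM in WT-MyoD and 71.2 and 68.8 CPM in VP64-MyoD cells (log2 fold change -0.56 over untreated cells and -0.67 over WT-MyoD, edgeR adjusted p = 3.5e-06 and 6.3e-07). MBTPS1, the protease that makes the first cut, stood at 295 and 299.7 CPM in untreated, 243 and 260.1 CPM in WT-MyoD and 165 and 166 CPM in VP64-MyoD cells (log2 fold change -0.85 ± 0.06, edgeR adjusted p = 8.5e-09 over untreated cells). ERLIN2, another gene of this list, was lower in VP64-MyoD than WT-MyoD cells (log2 fold change -0.48).

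ERLIN1 and ERLIN2 rose with WT-MyoD (log2 fold change 0.43 and 0.27, edgeR adjusted p = 3.7e-05 and 0.0016). TMEM97, a sterol-responsive membrane protein, rose with both forms, from 5.29 and 5.40 CPM to 9.63 and 9.64 CPM with WT-MyoD and 12.3 and 13.8 CPM with VP64-MyoD (log2 fold change 0.85 and 1.29, edgeR adjusted p = 1.3e-05 and 5.9e-08). In that list 3 genes rose and 2 fell with WT-MyoD (1 fell without untreated replicate 2), and 1 rose and 4 fell with VP64-MyoD, where 48.5% and 63.6% of all genes were called. On library totals alone these counts were 5 and 0, and 2 and 3. Without WT-MyoD replicate 1, 2 genes of the list were higher in VP64-MyoD than WT-MyoD cells.

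The isoprenoid branch uses farnesyl and related diphosphates for protein prenylation, ubiquinone and dolichol. Of its 9 genes, 5 were higher and 0 lower in VP64-MyoD than WT-MyoD cells, or 2 higher without VP64-MyoD replicate 1. The number called was near the 57.2% of all genes called there, with 28.7% higher and 28.4% lower. NUS1, a subunit of the enzyme that makes dolichol precursors, stood at 75.0 and 69.6 CPM in untreated, 62.0 and 63.7 CPM in WT-MyoD and 89.1 and 94.2 CPM in VP64-MyoD cells (log2 fold change 0.55 ± 0.07, edgeR adjusted p = 3.4e-06 between the forms). PGGT1B and FNTB, prenyl transferase subunits, were higher by 0.42 and 0.39, and FNTB lost its call without VP64-MyoD replicate 1 (edgeR adjusted p = 0.07). Over untreated cells, 2 genes rose and 0 fell with VP64-MyoD, and 1 rose and 2 (GGPS1 and NUS1) fell with WT-MyoD, where 63.6% and 48.5% of all genes were called. With library totals alone these counts were 6 and 0, and 1 and 0. The rise with WT-MyoD was lost without untreated replicate 1 or WT-MyoD replicate 1, the fall of NUS1 without untreated replicate 1, and that of GGPS1 without untreated replicate 2 or WT-MyoD replicate 2.

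Of 18 genes of sterol uptake, export and storage, 3 rose and 13 fell with VP64-MyoD against untreated cells (median log2 fold change -0.39), where 33.3% of all genes rose and 30.3% fell. The counts were 5 and 8 with library totals alone. LRP1, a large lipoprotein receptor, stood at 8383 and 7984 CPM in untreated, 3268 and 5010 CPM in WT-MyoD and 2771 and 2522 CPM in VP64-MyoD cells (log2 fold change -1.63 ± 0.14, edgeR adjusted p = 5.2e-08). CYP27A1, which oxidises the sterol side chain, was lower with VP64-MyoD than in untreated cells and than with WT-MyoD (log2 fold change -1.25 and -2.03, edgeR adjusted p = 7.9e-07 and 2.6e-09). CAV1, the caveolar coat protein, rose with both forms, from 325 and 315 CPM to 905 and 869.8 CPM with WT-MyoD and 609 and 620.1 CPM with VP64-MyoD (log2 fold change 1.47 and 0.94).

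With WT-MyoD, 6 of the 18 rose and 7 fell, and 3 rose without untreated replicate 1. Over all genes 26% rose and 22.6% fell. MYLIP, a ligase that marks lipoprotein receptors for degradation, rose with WT-MyoD to 19.7 CPM in each library, from 7.55 and 7.18 CPM, and was lower in VP64-MyoD than WT-MyoD cells (log2 fold change -1.29, edgeR adjusted p = 2.5e-08). VLDLR, a lipoprotein receptor, fell with WT-MyoD from 101 and 99.9 to 40.2 and 40.9 CPM (log2 fold change -1.31 ± 0.06, edgeR adjusted p = 4.3e-11). SOAT1, which makes cholesterol esters for storage, was lower in VP64-MyoD than WT-MyoD cells (log2 fold change -0.95 ± 0.06, edgeR adjusted p = 4.4e-09). Between the forms, 4 of the 18 were higher and 10 lower with VP64-MyoD, or 2 higher on largest transcript rows alone, where 28.7% of all genes were higher and 28.4% lower.

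Of 21 other genes of fatty acid elongation, desaturation and activation, 14 rose and 3 fell with VP64-MyoD (median log2 fold change 0.38), and 6 rose and 3 fell with WT-MyoD (median 0.07), or 14 and 1, and 12 and 2, with library totals alone. Over all genes 33.3% rose and 30.3% fell with VP64-MyoD, and 26% rose and 22.6% fell with WT-MyoD. On largest transcript rows alone, 3 rose with WT-MyoD. Between the forms, 11 were higher and 4 lower with VP64-MyoD, against 28.7% and 28.4% of all genes. The acyl-CoA ligases ACSL4 and ACSL3 rose with VP64-MyoD (log2 fold change 0.85 and 0.63), as did the desaturase relative FADS3 (0.66; edgeR adjusted p = 5.1e-09, 3.3e-07 and 4.2e-07). ME1, a source of NADPH for lipid synthesis, stood at 36.5 and 35.5 CPM in untreated, 29.2 and 25.0 CPM in WT-MyoD and 50.9 and 52.8 CPM in VP64-MyoD cells (log2 fold change 0.93 ± 0.08, edgeR adjusted p = 7.7e-08 between the forms), and its fall with WT-MyoD was not called with library totals alone (edgeR adjusted p = 0.056).

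HACD1, a muscle-enriched dehydratase of chain elongation, was higher in VP64-MyoD than WT-MyoD cells (log2 fold change 0.72 ± 0.11, edgeR adjusted p = 4.3e-05). SCD5, a relative of SCD, rose with WT-MyoD (log2 fold change 0.72) and ELOVL5 fell (-0.43; edgeR adjusted p = 7.7e-06 and 3.6e-05). Of 11 genes of glycerolipid synthesis, 1 rose and 4 fell with WT-MyoD, 2 rose and 5 fell with VP64-MyoD, and 1 was higher and 4 lower between the forms. Taken without direction, these counts were near or under the background, since 48.5%, 63.6% and 57.2% of all genes were called in these comparisons. More were called lower than higher in each. Over all genes 26% rose and 22.6% fell with WT-MyoD, and 33.3% rose and 30.3% fell with VP64-MyoD. Between the forms 28.7% of all genes were higher and 28.4% lower. Without any 1 of the 4 untreated and VP64-MyoD libraries, 1 rose with VP64-MyoD, and without WT-MyoD replicate 1, 2 rose with WT-MyoD. On library totals alone, 2 rose and 4 fell with WT-MyoD, and 2 rose and 3 fell with VP64-MyoD. GPAM, the first acyltransferase of triglyceride synthesis, stood at 66.2 and 64.6 CPM in untreated, 29.9 and 32.5 CPM in WT-MyoD and 57.4 and 60.0 CPM in VP64-MyoD cells. It fell with WT-MyoD (log2 fold change -1.07 ± 0.07, edgeR adjusted p = 2.3e-09) and was higher in VP64-MyoD than WT-MyoD cells (log2 fold change 0.91 ± 0.07, edgeR adjusted p = 1.9e-08).

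The phosphatases LPIN2 and LPIN1, which make diacylglycerol, fell with VP64-MyoD by 1.15 and 0.56 on the log2 scale, as did the acyltransferase AGPAT2, by 0.84 (edgeR adjusted p = 3.0e-10, 1.1e-06 and 4.1e-07). LPIN1 and LPIN2 were also lower in VP64-MyoD than WT-MyoD cells (-0.70 and -0.70). CEPT1 fell and CHPT1, a second enzyme of phosphatidylcholine synthesis, rose with WT-MyoD (log2 fold change -0.46 and 0.45, edgeR adjusted p = 0.00091 and 0.00021).

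**Figure D4:**
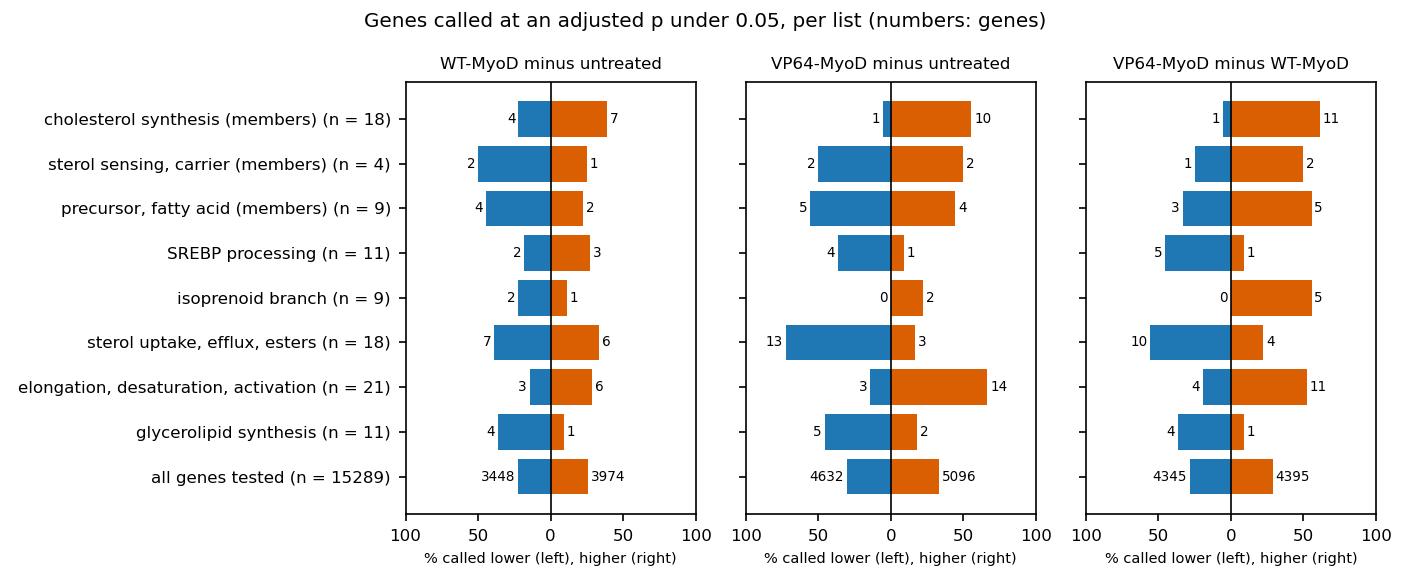
Percent of the genes of each list that were called higher (right, orange) or lower (left, blue) at an edgeR adjusted p under 0.05, for the 3 lists of the 31 genes, 5 lists of neighbouring pathways and all genes tested, with the number of genes at each bar. With VP64-MyoD over untreated cells the cholesterol synthesis bar shows 10 higher and 1 lower, and the bar for sterol uptake, export and storage shows 3 higher and 13 lower.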

How the data were processed

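The tools named in the submitters' processing notes are CASAVA, Bowtie 0.12.9 and, for the authors' comparisons, DESeq 1.10.1, on build hg19. The counter and annotation release are not given in the sources used here. The values analysed are deposited counts of reads on each RefSeq transcript, with no normalization; all values are even, as when a read pair counts as 2. The authors' deposited table of comparisons, per the file headers, gives a signal (mean count over size factors), a fold ratio, a log2 fold change and p-values for 3135 transcripts; only the log2 values of ELOVL6 were taken from it. Polyadenylated RNA of 6 libraries was measured, in 3 groups taken from the sample titles.

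Of 40710 transcript rows, 39324 were matched to a symbol through RefSeq GRCh38.p14 accessions and 517 through GENCODE 29; 868 without a symbol (0.601% to 0.744% of counts) were left out, and 1 row is the transgene. Rows were summed per symbol. The test was that of edgeR 4.0.16 (R 4.3.3): TMM, filterByExpr (minimum count 10, total 15), 1 quasi-likelihood fit of 6 libraries with 3 residual degrees of freedom, two-sided, Benjamini-Hochberg over all genes. The code was tested on simulated data. The SE of a log2 change is its size divided by the root of F. Alternatives used DESeq2 1.42.0, limma 3.58.1, other scalings, filters and rows, counts halved, a replicate block, fits of 2 groups and leaving out each library. The 31 genes, the lists and tests were chosen with earlier results of these data known. Full values go to the 5 highest and 5 lowest called genes of the 31 per comparison and to SREBF1, SREBF2 and INSIG1. Of each other list, up to 3 called genes with the largest change and at least 5 CPM are named. CCAAT, E-box motifs, the 5 promoters shown and library-total scaling were chosen after seeing the data. Replicates of a group differed by more than sampling noise. The chi-square per degree of freedom was 3.35 in untreated, 13.2 in WT-MyoD and 5.76 in VP64-MyoD cells. The groups share 1 estimate of the spread, which may be too small for WT-MyoD in both comparisons that use it. Since the builds differ, no coordinates are given but those of the RefSeq GRCh38.p14 promoter windows.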

Additional observations from a re-analysis of the deposited data

How the results depend on the processing

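Over 17 alternatives, the number of the 31 genes called higher in VP64-MyoD than WT-MyoD cells ran from 16 to 18, against 18. Leaving out each library in turn gave 16 to 18 higher and 3 to 6 lower genes between the forms. For VP64-MyoD over untreated cells it gave 14 to 17 higher and 7 to 8 lower, and for WT-MyoD 7 to 12 higher and 7 to 12 lower. With library totals alone, 2 genes were lower with VP64-MyoD and 4 with WT-MyoD, against 8 and 10 with TMM; here the median of all genes itself moved. FDPS turned from a log2 fold change of 0.24 with WT-MyoD to -0.11 on 1 transcript row tied as its largest (edgeR adjusted p = 0.49). Its 5 rows ran from -0.12 to 0.53. FASN turned from 0.01 to -0.16 without WT-MyoD replicate 2 and stood at 0.16 without WT-MyoD replicate 1, since the 2 WT-MyoD libraries lie on either side of the untreated ones. The same number in different groups did not mark a shared deviation (correlations of 0.028, 0.020 and 0.0045), so the numbers do not pair the libraries. With the replicate block, 10 genes were higher and 10 lower for WT-MyoD, 17 and 8 for VP64-MyoD, and 18 and 4 between the forms. TM7SF2, HSD17B7, MVK and EBP had the fewest reads of the 31 genes, all under 10 CPM; with counts halved, all 31 genes kept their calls in the 3 comparisons.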
